A study of Sus scrofa with 40 samples.

Results

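Ion channels and cation pumps are the membrane proteins that build, hold and spend the sodium, potassium, calcium, chloride and proton gradients of a cell. The members described here were the array identifiers whose gene symbol begins with the stem of a potassium channel (KCN), a calcium channel (CACN), a sodium channel (SCN), a chloride channel (CLCN), a TRP channel, a mucolipin (MCOLN), an intracellular calcium release channel (ITPR, RYR) or a cation ATPase (ATP1, ATP2, ATP6). This rule uses names alone and found 119 identifiers for 105 gene symbols, among 35955 identifiers on the array. KCNIP4, a potassium channel interacting protein, is named on this array only in a description and so fell outside the rule. It is given separately below.

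The question was how warm ischemia, alone or followed by cold storage, changes gene expression in pig kidneys before any reperfusion. Every kidney came from a 3 months old Large White pig. The 2 regions, cortex (C) and corticomedullary junction (CMJ), were each measured in 4 states with 5 arrays, giving 8 groups and 40 arrays. Control kidneys (Ctl-C, Ctl-CMJ) were removed and frozen at once, and WI kidneys (WI-C, WI-CMJ) were kept clamped for 60 min at 37 °C. A further set of kidneys had the same 60 min of warm ischemia, a cold flush with University of Wisconsin solution and storage at 4 °C, and was biopsied at 6 h (WI+CS6h-C, WI+CS6h-CMJ) and again at 24 h (WI+CS24h-C, WI+CS24h-CMJ). By the sample labels the 6 h and 24 h groups hold the same 5 kidneys, although the study's methods list them as separate groups and do not mention a second biopsy. The labels do not say whether a replicate number marks the same kidney across times or regions. No kidney was reperfused, and none was cold stored without warm ischemia. Between 57.0% and 69.9% of the spots of an array were well above background, and arrays of the same group correlated at 0.954 to 0.995. All values are log2 signals after quantile normalization, and a change of 1 is a doubling in level. A result was called when limma's test gave a Benjamini-Hochberg adjusted p under 0.05 over all identifiers and the log2 difference was at least 0.5.

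In a renal tubule the Na,K-ATPase of the basolateral membrane spends ATP to keep cell sodium low and potassium high, and apical and basolateral channels let ions follow these gradients. When oxygen is lost ATP falls, the pumps slow, sodium and calcium enter and potassium leaves, and cooling slows the pumps further. Calcium ATPases remove calcium from the cytosol, inward rectifier and other potassium channels set the membrane voltage, the epithelial sodium channel takes up sodium in the collecting duct, and TRPM6 takes up magnesium in the distal convoluted tubule.

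The first 30 bases of the 60-base probes behind the results are shown because the level of a gene rests on a few such probes, and probes of the same gene did not always behave alike. They are the sequences printed in the array files, 5′ to 3′, and the position is the start the files give for the probe. For ATP2B1, KCNS3, KCNJ10 and TRPC4AP, values are also given by probe or with the brightest probe alone.
ATP2B1 probe at 385: ttatacttgtgatgggcgacatggcaaaca
ATP2B1 probe at 756: tcattgggcctttctttttaccaacctcca
ATP2B1 probe at 3825: tttatgacgcatcctgagtttaggatagaa
ATP2B1 probe at 3992: aatgaacaagtctgctacctcttcatcccc
ATP2B1 probe at 4138: caagatagtattcttgtctttggacttcaa
KCNS3 probe at 228: tgagtgatttcccagcgatttctttggctg
KCNS3 probe at 2115: gaggcccattaaatgccttgctctgaaagt
KCNJ10 probe at 2021: atgaggagtgactaatgcagagctatcatc
KCNJ10 probe at 5094: tgcatttaagactaatgtacctaggaggaa
KCNJ2 probe at 1118: attttgctatgaaaatgaagtggccctcac
SCNN1G probe at 3149: ggtttcacctgtgacccaagaaagggttag
TRPM6 probe at 5955: ttaaaaagaaatgactattgccctggaagg
TRPC1 probe at 2081: agatgaaaactaccaaaaagtgatgtgctg
TRPC1 probe at 2201: cctgtcaaaattccgaaatgaaataagaga
TRPC4AP probe at 1416: aagatacagtttttgaggctcctccagagt
TRPC4AP probe at 2659: tccctcaagatttccaccgtgaagacaggg

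Of the 119 members, 65 were well above background on all 40 arrays, 34 on some arrays and 20 on none, against 48.0% of all identifiers on every array and 24.96% on none. No member was saturated. The subunits of the vacuolar proton ATPase, which acidifies vesicles and, in intercalated cells, the urine, were measured nearly throughout, with 12 of 14 identifiers above background on every array. All 3 identifiers of the epithelial sodium channel and 7 of the 9 calcium ATPase identifiers were also above background on every array. The pore-forming voltage-gated potassium channels had 6 of 18 identifiers above background on every array and 4 on none, and 4 of the 16 TRP identifiers were above background on none.

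**Figure D1:**
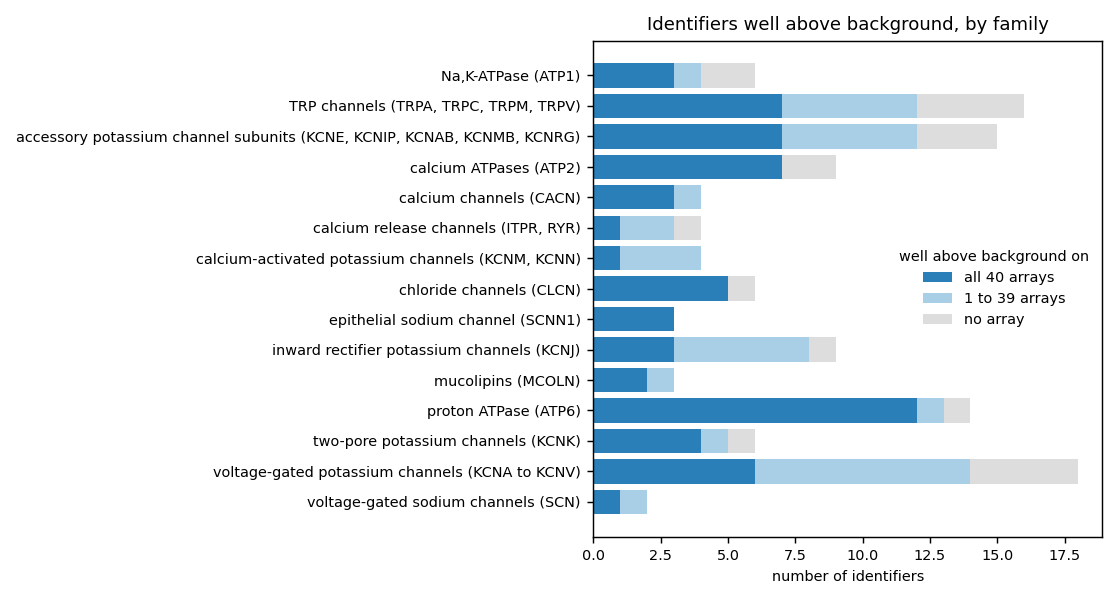
Number of array identifiers in each ion channel and pump family, split into those well above background on all 40 arrays, on 1 to 39 arrays and on no array. The proton ATPase has 12 of 14 identifiers above background on every array, and the voltage-gated potassium channels 6 of 18.

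Few members were called in any comparison, and the shares were close to those of the whole array. Warm ischemia alone called 0 of 119 members in cortex (0.0946% of all identifiers were called), where 3 members had an unadjusted p under 0.05 in limma (4.89% of all identifiers). In CMJ it called 1 member, which was higher (0.687% of all identifiers were called, 0.37% higher and 0.317% lower). After 6 h of cold storage, 5 members were called against Ctl-C, 2 higher and 3 lower, while 4.02% of all identifiers were called, 1.63% higher and 2.39% lower. Against Ctl-CMJ 3 members were called, 2 higher and 1 lower (3.19% of all, 1.35% higher and 1.84% lower). After 24 h, 3 were called against Ctl-C, 1 higher and 2 lower (2.5% of all, 1.04% higher and 1.46% lower). Against Ctl-CMJ 4 were called, 2 higher and 2 lower (3.65% of all, 1.35% higher and 2.3% lower).

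Against WI-C, cold storage called 4 members at 6 h, 2 higher and 2 lower (1.93% of all identifiers, 1% higher and 0.921% lower), and 1 at 24 h, which was lower (1.2% of all, 0.637% higher and 0.568% lower). Against WI-CMJ it called 5 at 6 h, 3 higher and 2 lower (2.78% of all, 1.37% higher and 1.41% lower), and 3 at 24 h, 1 higher and 2 lower (2.85% of all, 1.24% higher and 1.61% lower). These 29 calls, 14 higher and 15 lower, came from 8 identifiers. Comparisons against the same control or WI arrays share those arrays, so their calls are not separate observations.

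No member was called between 24 h and 6 h in either region. Over all identifiers 0% were called in cortex and 0.00278% in CMJ, and limma gave an unadjusted p under 0.05 for 3 members in cortex (3.11% of all) and 1 in CMJ (3.44% of all). No member was called between Ctl-CMJ and Ctl-C (0.312% of all identifiers were), with 11 members at an unadjusted p under 0.05 (6.09% of all). With a block for each pair of same-numbered arrays of the 2 regions, 2 members were called there. They were ATP6V1C2, a proton ATPase subunit, lower in CMJ by a log2 difference of −0.66 (adjusted p = 0.00644), and KCNK13, a potassium channel, higher by 1.01 (adjusted p = 0.00432). The share of all identifiers called with that block is not given here. The labels do not give such a pair as one kidney, and same-numbered control arrays correlated at −0.128 to 0.080. In the limma tests of whether the change from control differed between regions no member was called, and 0% of all identifiers were. There an unadjusted p under 0.05 was reached by 3 members after WI (1.98% of all), by 2 at 6 h of cold storage (5.17%) and by 2 at 24 h (2.58%).

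The members whose groups did not overlap at all, called or not, numbered 10 at 6 h and 6 at 24 h against Ctl-C (5.23% and 5.73% of all identifiers) and 10 and 8 against Ctl-CMJ (5.96% and 5.45%). Against WI-C they numbered 8 and 6 (3.27% and 3.38%) and against WI-CMJ 6 and 2 (5.91% and 4.58%). Warm ischemia alone separated 1 member from Ctl-C (1.68% of all) and 4 from Ctl-CMJ (3.9%), and Ctl-CMJ and Ctl-C were apart for 4 members (2.45%).

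**Figure D2:**
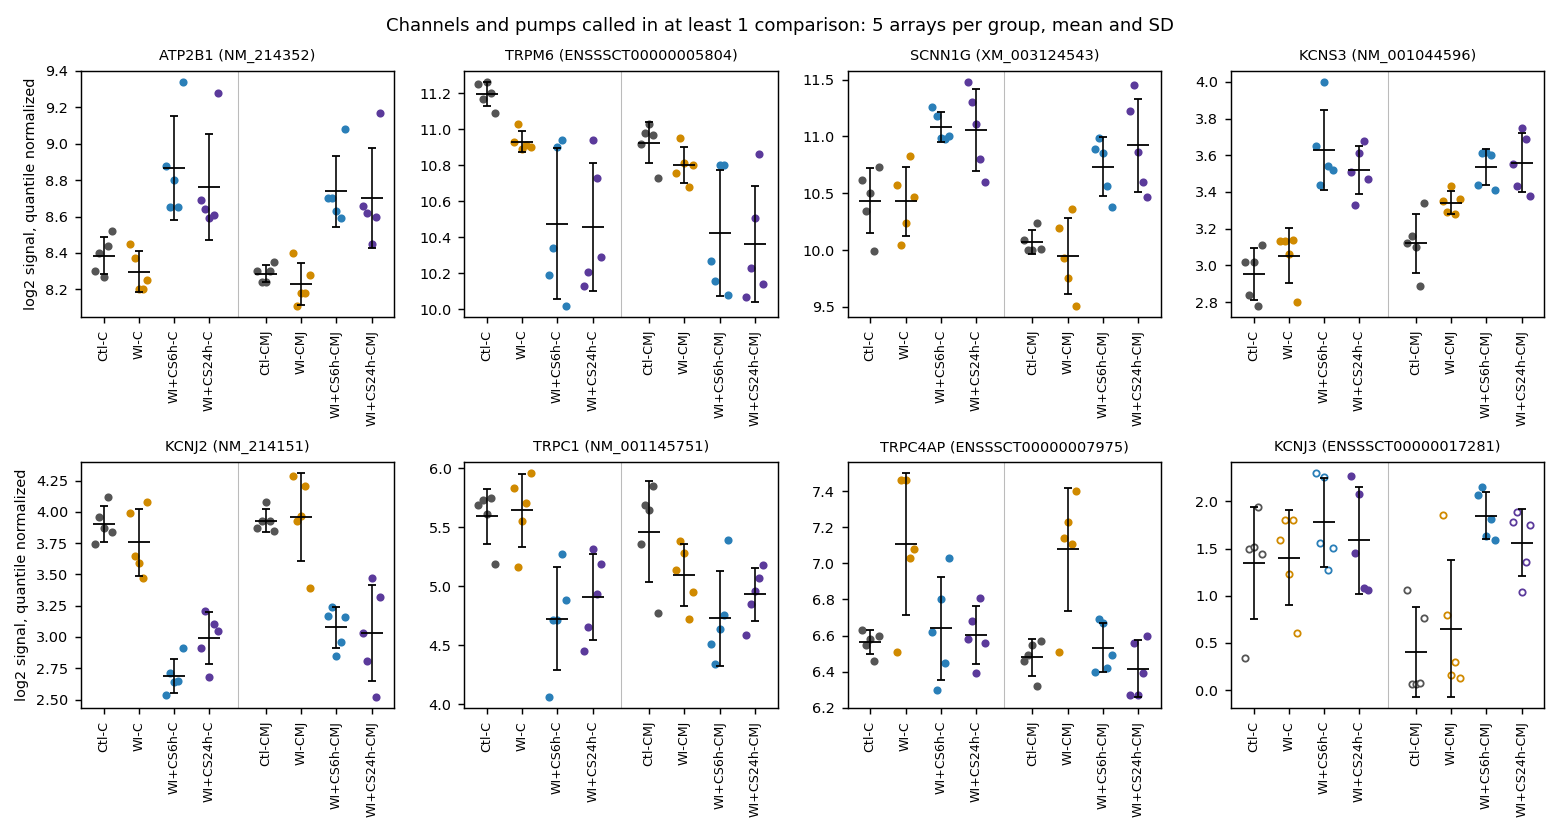
Log2 signal of the 8 called identifiers on each array, with 1 panel a gene, 5 points a group in order of replicate number, and the mean ± SD of the group. Open circles mark groups with no array well above background. KCNJ2 lies lower in all 4 cold-stored groups, SCNN1G and ATP2B1 higher, and TRPC4AP is higher in 4 of 5 arrays of each WI group.

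Small shifts below the fold threshold leaned upwards after cold storage. The median member was 0.16 higher than Ctl-C on the log2 scale at 6 h and 0.13 higher at 24 h, and in CMJ 0.13 and 0.12 higher, while the medians over all identifiers were 0.05, 0.01, −0.01 and 0.00. In these 4 comparisons 86, 87, 86 and 84 of the 119 members lay above control, against 20606 and 19100 of 35939 identifiers in cortex and 17325 and 18355 of 35938 in CMJ. The members were not tested as a set, and they differ from the whole array in how many are above background.

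**Figure D3:**
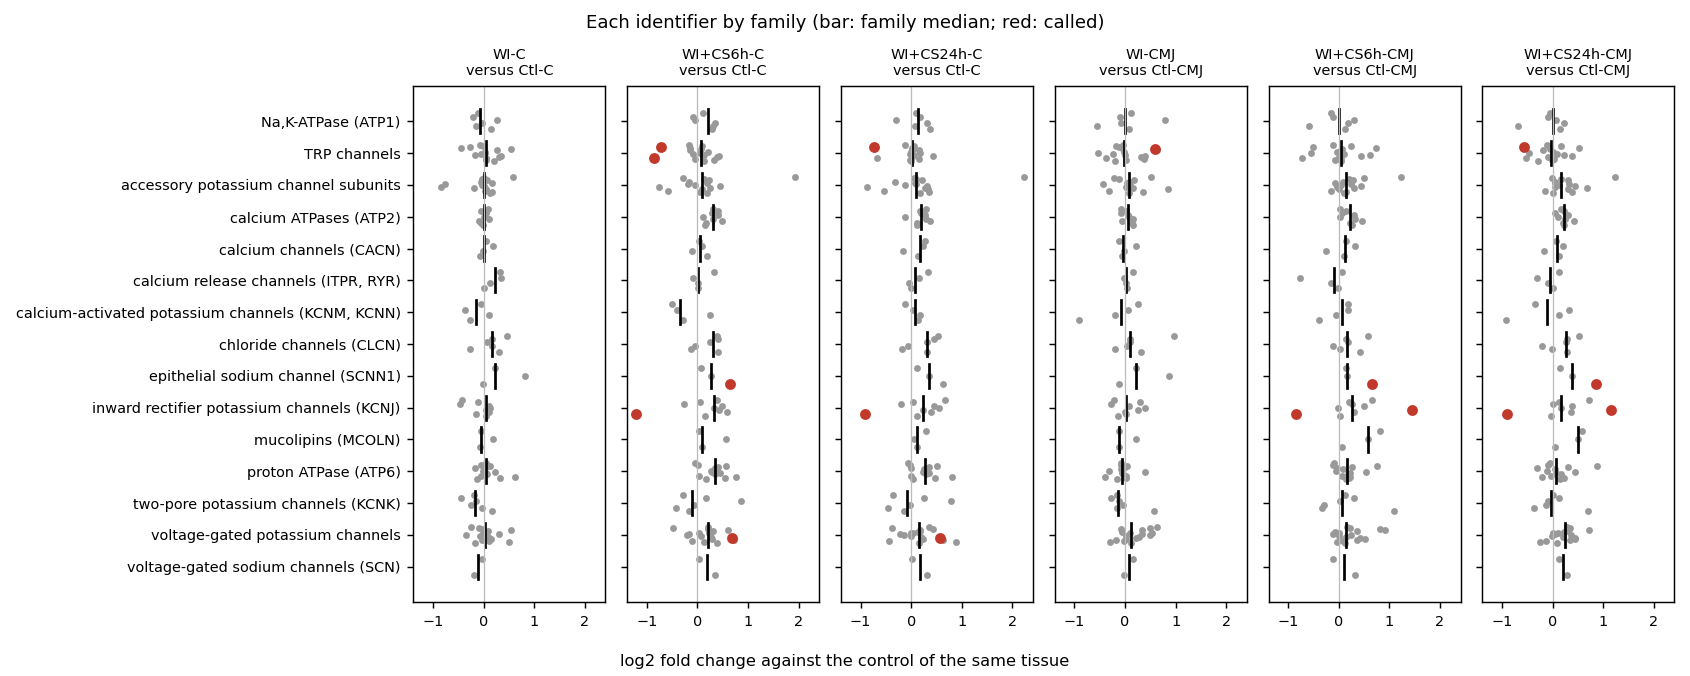
Log2 difference from the control group of the same region for each identifier, by family, in 6 comparisons (WI, WI+CS6h and WI+CS24h in cortex and CMJ). Each point is an identifier, black bars are family medians and called members are red. After cold storage the calcium ATPase medians lie 0.20 to 0.30 above control, and the TRP medians between −0.04 and 0.07.

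The Na,K-ATPase, 3 of whose 6 identifiers were above background on every array, had no call. ATP1B1, the subunit that carries the pump to the membrane, averaged 13.50 ± 0.08 (SD, n = 5) in Ctl-C and 13.46 ± 0.09 in WI-C. Its cold-stored cortex means were 13.85 ± 0.29 at 6 h and 13.82 ± 0.22 at 24 h. In CMJ ATP1B1 averaged 13.55 ± 0.23 in Ctl-CMJ and 13.78 ± 0.19 in WI+CS24h-CMJ. It was not called in any comparison.

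The calcium ATPases carry calcium out of the cell (ATP2B), into the endoplasmic reticulum (ATP2A) or into the Golgi apparatus (ATP2C). All 9 identifiers had a mean above control at 6 h in both regions, and the family median was 0.30 in cortex and 0.23 in CMJ. These 9 are 6 genes, with ATP2A2 present as 3 identifiers and ATP2C1 as 2, and ATP2A1 and ATP2C2 were above background on no array, so that their differences carry no level. At 24 h, 8 of 9 were above Ctl-C and 9 of 9 above Ctl-CMJ. ATP2C1 (ENSSSCT00000034378), the Golgi pump, passed the adjusted p but not the fold threshold, with log2 differences of 0.40 (SE 0.10, adjusted p = 0.0285) at 6 h in cortex 0.30 (SE 0.07, adjusted p = 0.0194) at 6 h in CMJ and 0.30 (adjusted p = 0.0178) at 24 h in CMJ. Its second identifier (ENSSSCT00000012246) did not pass in any of these comparisons (adjusted p = 0.170, 0.802 and 0.767). ATP2A2, the reticulum pump, did so through 1 of its 3 identifiers (X16951) at 6 h in CMJ, with 0.27 (SE 0.07, adjusted p = 0.0464).

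ATP2B1 (NM_214352), a plasma membrane calcium pump, was the calcium ATPase that was called. Its log2 signals were 8.30, 8.40, 8.27, 8.44 and 8.52 in Ctl-C and 8.45, 8.37, 8.20, 8.20 and 8.25 in WI-C. They were 8.88, 8.65, 8.80, 8.65 and 9.34 in WI+CS6h-C and 8.69, 8.64, 8.59, 8.61 and 9.28 in WI+CS24h-C. Every cold-stored cortex array lay above every control and WI cortex array, and array 5 was the highest at both times. In CMJ the signals were 8.30, 8.24, 8.24, 8.30 and 8.35 in Ctl-CMJ and 8.40, 8.11, 8.18, 8.18 and 8.28 in WI-CMJ. They were 8.70, 8.70, 8.63, 8.59 and 9.08 in WI+CS6h-CMJ and 8.66, 8.62, 8.45, 8.6 and 9.17 in WI+CS24h-CMJ. Again no cold-stored array overlapped the control or WI arrays, and array 5 stood highest.

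The ATP2B1 difference between WI+CS6h and WI was 0.57 in cortex (SE 0.14, adjusted p = 0.0371) and 0.51 in CMJ (SE 0.11, adjusted p = 0.0177). Against control at 6 h it was 0.48 in cortex (adjusted p = 0.0537), and in CMJ 0.45 (adjusted p = 0.0298), under the fold threshold. By probe, the pair at 3825 and 3992 gave 0.75 and 0.69 against WI-C and 0.68 and 0.57 against WI-CMJ, and these 4 results were called. The pair at 385 and 756 gave 0.45 and 0.44 in cortex and 0.48 and 0.38 in CMJ, and none of these was called. The probe at 4138 was flagged as an outlier spot on 25 of 40 arrays and had no value there, and leaving it out kept both calls (0.58, adjusted p = 0.0350, and 0.53, adjusted p = 0.0162). The cortex call stood in 3 of 10 fits without 1 array (WI-C 1 or WI+CS6h-C 2 or 4) and the CMJ call in 6 of 10 (all but WI-CMJ 2, 3 or 4 or WI+CS6h-CMJ 5). Without array 5 of the 6 h group the differences were 0.45 and 0.43. Both calls were also lost with 75th percentile scaling (adjusted p = 0.0728 and 0.0514), with normexp (0.40 and 0.32, under the fold threshold), with the brightest probe (adjusted p = 0.103 and 0.0710) and on either scan day alone, and the CMJ call with slide as a block (adjusted p = 0.0987). With the authors' normalized values the 24 h differences from WI were called as well (0.53, adjusted p = 0.0428, and 0.55, adjusted p = 0.00847).

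The subunits of the vacuolar proton ATPase had a median of 0.35 above Ctl-C at 6 h, with 13 of 14 higher, and of 0.26 at 24 h, with 10 of 14 higher. In CMJ the medians were 0.16 and 0.06, and no subunit was called in any comparison in the fit used here. With the block for same-numbered arrays of the regions ATP6V1C2 was called between the control regions, as given above. ATP6V0A1, a subunit of the membrane sector, averaged 11.57 ± 0.12 in Ctl-C and 11.86 ± 0.10 in WI+CS6h-C. In CMJ it averaged 11.09 ± 0.20 in Ctl-CMJ, 11.48 ± 0.30 in WI-CMJ and 11.62 ± 0.30 in WI+CS6h-CMJ, and with slide as a block it was called between the latter and Ctl-CMJ (0.62, adjusted p = 0.0303). All 5 Ctl-CMJ arrays lay below all 5 Ctl-C arrays, and the regional difference of −0.48 (SE 0.16) had an adjusted p = 0.325. The intercalated cell list, of which 1 of 4 genes was found, read 2.51 to 4.11 in Ctl-CMJ and 4.19 to 5.08 in Ctl-C on the log2 scale, a difference of −1.30 that was not called, and its part in the regional values was not tested.

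The epithelial sodium channel has 3 subunits, alpha (SCNN1A), beta (SCNN1B) and gamma (SCNN1G), and takes up sodium at the apical membrane of the collecting duct. The gamma subunit was called higher at 6 h in both regions and at 24 h in CMJ, while alpha and beta were not called. SCNN1G (XM_003124543) read 10.62, 10.34, 10.50, 9.99 and 10.73 in Ctl-C and 10.57, 10.04, 10.24, 10.83 and 10.47 in WI-C. It read 11.26, 11.18, 10.99, 10.98 and 11.00 in WI+CS6h-C and 11.48, 11.30, 11.11, 10.80 and 10.60 in WI+CS24h-C. All 6 h arrays were above all control and WI arrays of cortex, whereas the 24 h arrays overlapped both. In CMJ it read 10.09, 10, 10, 10.24 and 10.01 in Ctl-CMJ and 10.19, 9.93, 9.75, 10.36 and 9.51 in WI-CMJ. It read 10.89, 10.99, 10.85, 10.56 and 10.38 in WI+CS6h-CMJ and 11.22, 11.45, 10.86, 10.60 and 10.47 in WI+CS24h-CMJ. Every cold-stored CMJ array was above every control and WI array there.

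The SCNN1G difference from Ctl-CMJ was 0.66 at 6 h (SE 0.18, adjusted p = 0.0482) and 0.85 at 24 h (adjusted p = 0.0101). Against WI-CMJ it was 0.79 at 6 h (adjusted p = 0.0227) and 0.97 at 24 h (adjusted p = 0.00555). In cortex the 6 h difference from Ctl-C was 0.65 (SE 0.18, adjusted p = 0.0431), and the 24 h difference of 0.62 did not pass (adjusted p = 0.0648). Both 24 h calls in CMJ stood in every fit without 1 array. The 6 h calls against control were lost in 8 of 10 such fits in cortex (all but Ctl-C 5 and WI+CS6h-C 4, adjusted p up to 0.112) and 9 of 10 in CMJ (all but WI+CS6h-CMJ 5, adjusted p up to 0.126), and the 6 h call against WI-CMJ without WI-CMJ 3 or 5 or WI+CS6h-CMJ 1, 2 or 3. The 6 h call against Ctl-CMJ was further lost with normexp (adjusted p = 0.0994), the authors' normalized values (0.0867), slide (0.0539) or scan day (0.0515) as a block and on either scan day alone. That against Ctl-C was lost with the replicate block (adjusted p = 0.0574), and that of 24 h against Ctl-CMJ with slide as a block (adjusted p = 0.0965). Conversely, 5 alternatives called the 24 h difference from Ctl-C, namely 75th percentile scaling (adjusted p = 0.0458), the dim filter (0.0461), normexp (0.0240), slide as a block (0.0287) and the authors' values (0.0248). The 6 h difference of 0.65 from WI-C (adjusted p = 0.0613) was also called under 5 alternatives, and the 24 h difference from WI-C with normexp and the authors' values. In bulk tissue, more transcript per cell and more cells of a type cannot be told apart. The collecting duct list (AQP2, AQP3 and AVPR2, 3 of 3 genes found, 4 identifiers all above background on every array) had a summed log2 level of 12.05 to 13.16 in Ctl-CMJ, 11.88 to 12.33 in WI+CS6h-CMJ and 11.77 to 12.55 in WI+CS24h-CMJ, and AQP3, a water channel, fell by 0.88 against WI-CMJ at 6 h (adjusted p = 0.0242).

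SCNN1A (NM_213758) read 3.54, 3.34, 3.60, 3.32 and 3.99 in Ctl-C and 3.17, 4.89, 4.82, 4.33 and 4.73 in WI-C. In CMJ it read 3.78, 3.24, 3.15, 3.30 and 3.68 in Ctl-CMJ and 3.66, 4.37, 4.34, 4.6 and 4.52 in WI-CMJ. In both WI groups arrays 2 to 5 lay above all control arrays and array 1 lay among or below them, and neither difference was called. With the replicate block that of WI-CMJ was called (0.87, adjusted p = 0.0494). That block joins same-numbered arrays of different kidneys, and those of WI-CMJ and Ctl-CMJ correlated at −0.210 to 0.076. After cold storage SCNN1A read 3.83, 3.11, 4.03, 3.12 and 5.02 in WI+CS6h-C and 3.98, 3.95, 3.45, 4.14 and 4.05 in WI+CS24h-C. In CMJ it then read 3.33, 3.53, 3.62, 3.13 and 4.3 in WI+CS6h-CMJ and 3.51, 4.08, 3.45, 3.7 and 4.37 in WI+CS24h-CMJ. These groups overlapped the control and WI groups of their region, and on scan day 2 alone the 6 h difference from WI-CMJ was called (−1.07, adjusted p = 0.0373). The erythrocyte list, of which 1 of 2 genes was found, read 0.29 to 2.85 in Ctl-C and 3.56 to 4.61 in WI-C on the log2 scale, and 0.85 to 3.00 in Ctl-CMJ and 2.19 to 4.62 in WI-CMJ. Its differences of 2.59 in cortex and 1.59 in CMJ were not called, and its part in the SCNN1A values was not tested. SCNN1B (ENSSSCT00000029056) averaged 8.28 ± 0.09 in Ctl-C and 8.51 ± 0.27 in WI-C, with the first WI-C array lowest at 8.06. In CMJ SCNN1B averaged 8.12 ± 0.13 in Ctl-CMJ and 8.33 ± 0.20 in WI-CMJ, with the first WI-CMJ array at 8.05.

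Of the 9 inward rectifier identifiers, KCNJ2 and KCNJ3 were called. KCNJ2 (NM_214151), the classical inward rectifier Kir2.1 that holds the resting voltage of muscle and endothelial cells, was lower in all cold-stored groups under the processing used here. It read 3.74, 3.96, 3.87, 4.12 and 3.84 in Ctl-C and 3.99, 3.65, 3.59, 3.47 and 4.08 in WI-C. It read 2.54, 2.71, 2.64, 2.65 and 2.91 in WI+CS6h-C and 2.91, 3.21, 2.68, 3.10 and 3.05 in WI+CS24h-C. None of the cold-stored cortex arrays reached the lowest control or WI array. In CMJ it read 3.87, 3.93, 4.08, 3.93 and 3.85 in Ctl-CMJ and 4.29, 3.93, 3.97, 4.21 and 3.39 in WI-CMJ. It read 3.17, 3.24, 2.85, 2.96 and 3.16 in WI+CS6h-CMJ and 3.03, 2.81, 3.47, 2.52 and 3.32 in WI+CS24h-CMJ. The only overlap was between 24 h and WI in CMJ, where WI array 5 lay below 24 h array 3.

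KCNJ2 fell by 1.22 on the log2 scale against Ctl-C at 6 h (SE 0.13, adjusted p = 3.73e-05) and by 0.91 at 24 h (adjusted p = 0.000548). Against WI-C it fell by 1.07 (adjusted p = 0.000249) and 0.76 (adjusted p = 0.00384). In CMJ it fell by 0.85 (SE 0.17, adjusted p = 0.0069) and 0.90 (adjusted p = 0.00408) against control. Against WI-CMJ the falls were 0.88 (adjusted p = 0.00673) and 0.93 (adjusted p = 0.00435). All 8 calls stood in every fit without 1 array. The probe is dim, well above background on 2 of 5 WI+CS6h-C arrays and 4 of 5 WI+CS24h-CMJ arrays, and all 8 calls were lost with normexp (falls of 0.07 to 0.12), with the authors' normalized values (falls of 0.24 to 0.32) and on either scan day alone. In the former pair of settings the adjusted p remained under 0.05 (at most 0.0265) and the fold threshold was missed, and on single days adjusted p ran from 0.0630 to 0.479. Normexp adds an offset of 50 before the log2 step, which shrinks the log2 differences of dim probes. The fold threshold could therefore hardly be met for this probe with normexp. The skeletal muscle list (5 of 6 genes found, 7 identifiers) had a summed log2 level of 7.47 to 7.93 in Ctl-C and 8.05 to 9.16 in WI+CS6h-C, and the smooth muscle list 10.53 to 11.25 and 11.19 to 11.82. In that comparison 3 skeletal muscle identifiers were called higher (CKM by 2.14 and 1.33, MYLPF by 0.58) and 1 of smooth muscle (CNN1 by 1.11). At 6 h against Ctl-CMJ no identifier of either list was called. The endothelium list (3 of 3 genes found, 4 identifiers) had a summed level of 11.62 to 11.78 in Ctl-C and 11.31 to 11.72 in WI+CS6h-C, with a median difference of −0.05 and no call. Their part in the KCNJ2 result was not tested.

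KCNJ3 (ENSSSCT00000017281), a G-protein-gated inward rectifier, was called higher in CMJ, against Ctl-CMJ at 6 h (adjusted p = 0.00753) and 24 h (adjusted p = 0.0271) and against WI-CMJ at 6 h (adjusted p = 0.0275). Its spots were not well above background on any Ctl-CMJ, WI-CMJ or WI+CS24h-CMJ array and on 1 of 5 WI+CS6h-CMJ arrays. No fold is therefore given. The calls were lost with normexp and with the authors' normalized values (adjusted p of 0.0930 to 0.768), and that at 24 h and that against WI-CMJ also with slide as a block. Of the 10 fits without 1 array, they stood in 10, 4 and 5. With the replicate block the 24 h comparison with WI-CMJ was called too (adjusted p = 0.0293).

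KCNJ10 (AK392785), a basolateral channel of the distal tubule that recycles potassium for the Na,K-ATPase, was not called. Its probe at 2021 was above background on 3 of 40 arrays and the probe at 5094 on all of them. The probe at 5094 read 6.81, 3.68, 6.14, 6.32 and 7.01 in WI-C and 8.02, 7.61, 7.24, 6.84 and 8.14 in WI+CS6h-C, a difference of 1.58 (SE 0.49, adjusted p = 0.0911). Array 2 was the lowest WI array in cortex and again in CMJ, where it read 3.51 and the others 6.70 to 7.75. The probe at 2021 read 3.21, 3.01 and 3.23 on its 3 detected arrays, which were array 2 of WI+CS24h-C, WI+CS6h-CMJ and WI+CS24h-CMJ. KCNJ15, another inward rectifier, averaged 9.49 ± 0.15 in Ctl-C and 9.97 ± 0.45 in WI+CS6h-C and was not called.

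KCNS3 (NM_001044596) encodes a silent subunit that modifies Kv2 channels, and was the voltage-gated potassium channel gene called in the fit used here. Its probe at 228 was not well above background on any array, and the probe at 2115 was on all 40. The probe at 2115 read 5.70, 5.37, 5.56, 5.04 and 5.79 in Ctl-C and 5.78, 5.62, 5.81, 5.86 and 5.22 in WI-C. It read 6.49, 6.57, 6.65, 6.76 and 6.52 in WI+CS6h-C and 6.67, 6.29, 6.91, 6.80 and 6.44 in WI+CS24h-C. The cold-stored cortex arrays lay above all control and WI arrays. In CMJ it read 5.79, 5.64, 5.77, 5.40 and 6.23 in Ctl-CMJ and 6.35, 6.24, 6.36, 6.08 and 6.37 in WI-CMJ. It read 6.28, 6.69, 6.78, 6.91 and 6.43 in WI+CS6h-CMJ and 6.73, 6.28, 7.08, 6.97 and 6.37 in WI+CS24h-CMJ. The cold-stored CMJ arrays were above control but overlapped WI-CMJ, of which 4 of 5 arrays lay above every control array.

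Averaged over its 2 probes, KCNS3 was higher by 0.67 against Ctl-C at 6 h (SE 0.11, adjusted p = 0.00179), by 0.57 at 24 h (adjusted p = 0.00721) and by 0.57 against WI-C at 6 h (adjusted p = 0.00933). In CMJ the differences from control, 0.41 at 6 h and 0.44 at 24 h (adjusted p = 0.0089 and 0.00527), were under the fold threshold. The probe at 2115 alone, above background on all 40 arrays, gave 1.11 at 6 h (SE 0.15, adjusted p = 0.000411) and 1.13 at 24 h (adjusted p = 0.000393) against Ctl-C. Against WI-C it gave 0.94 at 6 h (adjusted p = 0.00233) and 0.97 at 24 h (adjusted p = 0.00219), the latter a call that the average of both probes did not make. In CMJ it gave 0.85 at 6 h (SE 0.17, adjusted p = 0.00604) and 0.92 at 24 h (adjusted p = 0.00308) against Ctl-CMJ. The comparison with WI-C fell to 0.48, below the fold threshold, without array 3 of WI+CS6h-C. All 3 cortex calls were lost with normexp (0.17 to 0.19) and with the authors' normalized values (0.36 to 0.40), where the adjusted p passed and the fold threshold was missed, and on either scan day alone. That against WI-C was also lost with 75th percentile scaling (adjusted p = 0.05004).

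Of the two-pore channels, which carry background potassium current, KCNK5 averaged 12.73 ± 0.11 in Ctl-C, 12.30 ± 0.27 at 6 h of cold storage and 12.26 ± 0.35 at 24 h and was not called, but with scan day as a block its 24 h difference from Ctl-C was called (−0.52, adjusted p = 0.0275). KCNMA1, the pore of the calcium-activated BK channel, was well above background on 1 of 40 arrays, in Ctl-CMJ. KCNE1 (NM_214165), an accessory subunit of KCNQ1, was 0.39 higher in WI+CS24h-CMJ than in Ctl-CMJ (SE 0.10, adjusted p = 0.0293), under the fold threshold, and its other identifiers did not pass. A few further members were called under a single alternative: KCNG1, a silent Kv subunit, at 6 h against Ctl-C with slide as a block (0.73, adjusted p = 0.0400), and KCNJ13, an inward rectifier above background on 10 of 40 arrays, in the same comparison with the dim filter (0.59, adjusted p = 0.0359). KCNAB1, a Kv beta subunit above background on all 40 arrays, was called in WI-CMJ against Ctl-CMJ (1.63) and at 6 h against WI-CMJ (−1.49) on scan day 2 alone.

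KCNIP4 (ENSSSCT00000030135), the interacting protein of Kv4 channels that the rule did not take in, read 3.67, 3.61, 2.84, 4.45 and 4.18 in Ctl-CMJ and 4.66, 4.88, 4.81, 4.22 and 5.00 in WI-CMJ. It read 2.93, 2.68, 3.37, 2.16 and 2.89 in WI+CS6h-CMJ and 3.04, 3.02, 3.16, 2.78 and 1.68 in WI+CS24h-CMJ. The cold-stored arrays lay below every WI-CMJ array and overlapped the controls. KCNIP4 fell against WI-CMJ by 1.91 at 6 h (SE 0.31, adjusted p = 0.00167) and by 1.98 at 24 h (adjusted p = 0.00122), and both calls stood in every fit without 1 array. Both were lost with normexp, which left falls of 0.22 and 0.21 under the fold threshold, and on scan day 1 alone, the 6 h call with slide as a block (−1.71, adjusted p = 0.150) and the 24 h call on scan day 2 alone (adjusted p = 0.0704). In cortex KCNIP4 was not called in any comparison of the fit used here. It read 4.66, 5.22, 2.92, 2.68 and 5.36 in WI-C, and the cold-stored cortex arrays overlapped these. The differences from WI-C were −0.630 at 6 h (SE 0.588, adjusted p = 0.656) and −1.005 at 24 h (adjusted p = 0.585). The adipocyte list (4 of 4 genes found, 6 identifiers) had a summed log2 level of 7.50 to 7.86 in Ctl-CMJ, 7.30 to 9.61 in WI-CMJ, 7.43 to 8.42 in WI+CS6h-CMJ and 7.29 to 8.25 in WI+CS24h-CMJ. Of the 6, 3 were above background on every WI-CMJ array and 1 on none, and none was called. Its median difference was 1.02 for WI-CMJ against control and −0.85 and −0.82 for the cold groups against WI-CMJ, and its part in the KCNIP4 result was not tested.

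TRPM6 (ENSSSCT00000005804), the magnesium channel of the distal convoluted tubule, fell in cold-stored kidneys, in cortex at both times and in CMJ at 24 h. It read 11.25, 11.17, 11.26, 11.20 and 11.09 in Ctl-C and 10.93, 11.03, 10.89, 10.91 and 10.90 in WI-C. It read 10.19, 10.34, 10.90, 10.94 and 10.02 in WI+CS6h-C and 10.13, 10.21, 10.94, 10.73 and 10.29 in WI+CS24h-C. All WI and cold-stored cortex arrays were below all controls, and arrays 3 and 4 of the cold-stored groups (10.73 to 10.94) lay above arrays 1, 2 and 5 (10.02 to 10.34). In CMJ it read 10.92, 10.98, 11.03, 10.97 and 10.73 in Ctl-CMJ and 10.76, 10.95, 10.81, 10.68 and 10.80 in WI-CMJ. It read 10.27, 10.16, 10.80, 10.80 and 10.08 in WI+CS6h-CMJ and 10.07, 10.23, 10.51, 10.86 and 10.14 in WI+CS24h-CMJ. Arrays 1, 2 and 5 were again the lowest at both times.

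TRPM6 fell by 0.72 against Ctl-C at 6 h (SE 0.17, adjusted p = 0.0236) and by 0.74 at 24 h (adjusted p = 0.0264). In CMJ it fell by 0.56 at 24 h (SE 0.15, adjusted p = 0.0420), and the 6 h difference of −0.50 did not pass (adjusted p = 0.0770), but did with the replicate block (adjusted p = 0.0428). Same-numbered arrays of WI+CS6h-CMJ and Ctl-CMJ, which that block joins, came from different kidneys and correlated at −0.074 to 0.218. The difference of −0.26 between WI-C and Ctl-C had an adjusted p = 1.00, although those groups did not overlap. Without 1 array the 3 calls stood in 5, 3 and 3 of 10 fits, with adjusted p up to 0.103. All 3 were lost without control arrays 1, 2 or 3 or cold-stored arrays 1 or 5, the 24 h calls also without control array 4 or cold-stored array 2. With 75th percentile scaling all 3 were lost (adjusted p = 0.0673, 0.0622 and 0.0636), as on either scan day alone, and the CMJ call was also lost with normexp (adjusted p = 0.0546) and slide as a block (−0.42, adjusted p = 0.318). The distal convoluted tubule list, of which 1 of 2 genes was found, read 12.16 to 12.43 in Ctl-C and 11.93 to 13.19 in WI+CS6h-C on the log2 scale, and its part in this result was not tested.

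TRPC1 (NM_001145751), a calcium-permeable channel of the canonical TRP group, read 5.69, 5.73, 5.61, 5.75 and 5.19 in Ctl-C and 5.83, 5.16, 5.55, 5.71 and 5.96 in WI-C. It read 4.06, 4.71, 4.71, 5.27 and 4.88 in WI+CS6h-C and 4.45, 4.65, 5.32, 4.93 and 5.19 in WI+CS24h-C. At 6 h array 4 overlapped the lowest control and WI arrays and the other 4 lay below them. TRPC1 fell by 0.87 against Ctl-C (SE 0.21, adjusted p = 0.0244) and by 0.92 against WI-C (adjusted p = 0.0276) at 6 h. The 6 h difference from Ctl-CMJ was −0.73 and did not pass (adjusted p = 0.0541), but did with the dim filter (adjusted p = 0.0330) and with slide as a block (−0.80, adjusted p = 0.0234). Each cortex call stood in 4 of 10 fits without 1 array, with adjusted p up to 0.0695 and 0.0759. The first was lost without Ctl-C 1, 2, 3 or 4, the second without WI-C 1, 3, 4 or 5, and both without WI+CS6h-C 1 or 3. Both were also lost with normexp, with falls of 0.18 and 0.19, and on either scan day alone.

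TRPC4AP (ENSSSCT00000007975), which encodes a TRPC4-associated protein that also serves a ubiquitin ligase and is no channel itself, was the member called after warm ischemia alone. It read 6.46, 6.49, 6.55, 6.32 and 6.57 in Ctl-CMJ and 6.51, 7.14, 7.23, 7.11 and 7.40 in WI-CMJ. It read 6.4, 6.69, 6.67, 6.42 and 6.49 in WI+CS6h-CMJ and 6.27, 6.56, 6.27, 6.39 and 6.6 in WI+CS24h-CMJ. Arrays 2 to 5 of WI-CMJ stood above every other CMJ array, and array 1 lay at the control level. Cortex showed the same order, with 6.63, 6.55, 6.58, 6.46 and 6.6 in Ctl-C and 6.51, 7.46, 7.46, 7.03 and 7.08 in WI-C.

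TRPC4AP was higher by 0.60 in WI-CMJ than in Ctl-CMJ (SE 0.13, adjusted p = 0.0373), and in cortex the difference of 0.54 (SE 0.16) did not pass (adjusted p = 0.555). Against WI-CMJ it fell by 0.55 at 6 h (adjusted p = 0.0241) and by 0.66 at 24 h (adjusted p = 0.00712). The test of whether the change from control differed between regions gave 0.06 (SE 0.21, adjusted p = 1.00). The WI-CMJ call stood in 2 of 10 fits without 1 array (Ctl-CMJ 5 or WI-CMJ 1), with adjusted p from 0.00066 to 0.125. The 24 h call stood in all 10, and the 6 h call in 4 (lost without WI-CMJ 2, 3, 4 or 5 or WI+CS6h-CMJ 1 or 4). The WI-CMJ call was also lost with 75th percentile scaling (adjusted p = 0.0696), the brightest probe (0.0730), slide as a block (0.144) and scan day 1 alone, and fell under the fold threshold with normexp (0.29) and the authors' values (0.43). The 6 h and 24 h calls against WI-CMJ were lost with normexp (−0.30 and −0.31), the authors' values (−0.42 and −0.48) and scan day 1 alone, and the 6 h call with slide as a block (adjusted p = 0.139). In cortex the differences from WI-C were called with the brightest probe at 6 h (−0.52, adjusted p = 0.0336) and 24 h (−0.51, adjusted p = 0.0463), and at 24 h with slide as a block (−0.59, adjusted p = 0.0301). The smooth muscle list (3 of 4 genes found, 4 identifiers, 1 of them above background on no array) had a summed log2 level of 10.84 to 11.75 in Ctl-CMJ and 11.4955 to 12.71 in WI-CMJ, with a median difference of 0.69 and no call. The part in these results of that list, of the erythrocyte list given with SCNN1A and of the adipocyte marker levels given with KCNIP4 was not tested. A second TRPC4AP identifier (AK400528) had group means of 8.74 to 8.92 and was not called. TRPV4, an osmosensitive calcium channel, averaged 8.54 ± 0.20 in Ctl-C, 8.88 ± 0.32 in WI-C and 8.97 ± 0.29 in WI+CS6h-C, and was not called.

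The mucolipins release calcium and other cations from lysosomes. MCOLN3 (AK234420) read 9.35, 8.81, 9.09, 8.36 and 9.61 in Ctl-CMJ and 10.03, 9.72, 9.77, 10.05 and 9.68 in WI+CS6h-CMJ. The 6 h arrays lay above all control arrays, but the difference of 0.81 (SE 0.28) had an adjusted p = 0.126, and that of 0.93 against WI-CMJ an adjusted p = 0.0726. The latter was called with the filter on dim identifiers (adjusted p = 0.0454), with scan day as a block (0.99, adjusted p = 0.0497) and on scan day 2 alone (1.78, adjusted p = 0.0258). The WI-CMJ arrays of that day were 3 and 5, the lowest of the group (8.42 and 7.92). At 24 h MCOLN3 read 9.73, 9.23, 9.48, 9.94 and 9.72 in CMJ, overlapping Ctl-CMJ (0.57, SE 0.28, adjusted p = 0.296). In cortex the MCOLN3 means were 9.23 ± 0.56 in Ctl-C, 9.26 ± 0.84 at 6 h and 9.52 ± 0.54 at 24 h, with overlapping arrays and differences of 0.03 and 0.30 (SE 0.42). MCOLN1 group means were between 10.75 and 10.95. An identifier without a gene symbol (ENSSSCT00000022578) is listed as mucolipin 3 by the study, but the array files describe it as cytochrome c oxidase subunit 2, and it was kept apart. It was higher in WI+CS6h-CMJ than in Ctl-CMJ by 1.05 (SE 0.28, adjusted p = 0.0377), and than in WI-CMJ by 1.19 at 6 h (adjusted p = 0.0213) and 1.03 at 24 h (adjusted p = 0.0429). The call against Ctl-CMJ was lost in 7 of 10 fits without 1 array (adjusted p up to 0.104, all but Ctl-CMJ 1, 3 and 5), with the replicate block (0.0677) and on either scan day alone. Of those against WI-CMJ, the 6 h call was lost without WI-CMJ 3 or 5 (adjusted p = 0.0633 and 0.0545), with slide as a block (0.0504) and on scan day 1 alone. The 24 h call was lost in 7 of 10 fits without 1 array (adjusted p up to 0.119, all but WI-CMJ 1, 2 and 4), with the replicate block (0.0738) and on either scan day alone. The chloride channels had no call. CLCN5, an endosomal exchanger of the proximal tubule, averaged 5.81 ± 0.23 in Ctl-C and 6.11 ± 0.19 in WI+CS24h-C.

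The spread inside the cold-stored groups was itself ordered by replicate number for several members. A choice made after the values were seen, the share of the within-group spread of the 20 cold-stored arrays carried by the replicate number, had a median of 43.0% over the 119 members and 29.9% over 35767 identifiers. Among identifiers above background on all 20 arrays it was 62.6% for 65 members and 47.5% for 17339. KCNMB4 (DY426151), a neuronal-type beta subunit of the BK channel, read 3.44, 3.03, 6.52, 6.12 and 2.42 in WI+CS6h-C and 2.96, 3.06, 6.27, 7 and 3.75 in WI+CS24h-C. In CMJ it read 2.71, 2.70, 6.79, 6.85 and 2.63 at 6 h and 2.86, 3.10, 6.55, 6.6 and 2.63 at 24 h. Arrays 3 and 4 were thus high in all 4 groups, and every Ctl-C array was between 1.85 and 2.96 (3 of 5 well above background).

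KCNK13, a two-pore potassium channel, was ordered differently. It read 6.89, 6.53, 4.72, 4.98 and 4.86 in WI+CS6h-C and 6.74, 6.83, 5.09, 5.07 and 5.07 in WI+CS6h-CMJ, so that arrays 1 and 2 were high. TRPV6, an epithelial calcium channel, read 8.27, 8.21, 8.67, 8.51 and 7.06 in WI+CS6h-C and 8.24, 8.19, 8.35, 8.41 and 6.86 in WI+CS6h-CMJ, with array 5 low. The same numbers were high or low at 24 h for both genes. The differences of KCNMB4 from Ctl-C, 1.93 (SE 0.83) at 6 h and 2.23 (SE 0.83) at 24 h, were larger than any called member's and did not pass (adjusted p = 0.191 and 0.178).

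**Figure D4:**
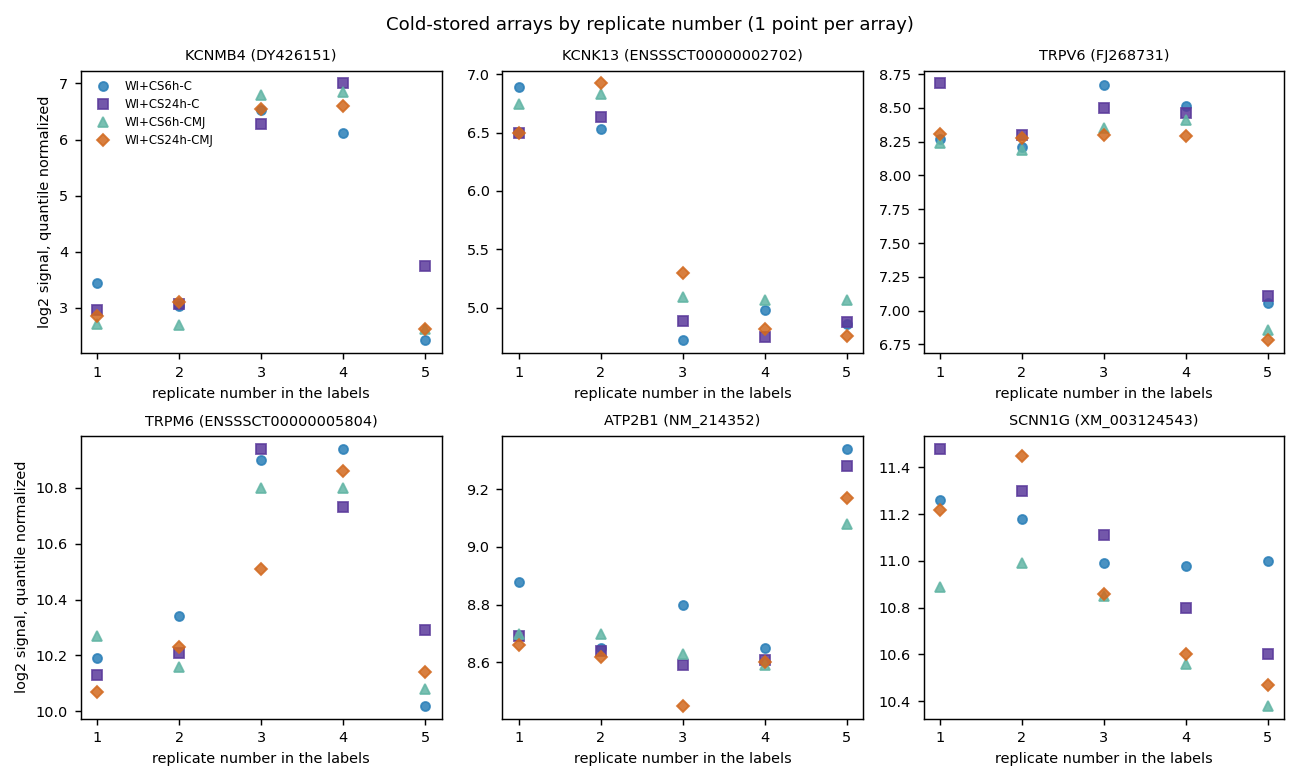
Log2 signal in the cold-stored groups against replicate number (1 to 5), with 1 panel a gene for KCNMB4, KCNK13, TRPV6, TRPM6, ATP2B1 and SCNN1G, and separate markers for 6 h and 24 h in cortex and CMJ. KCNMB4 is high at numbers 3 and 4, KCNK13 at 1 and 2, TRPV6 is low at 5 and ATP2B1 is high at 5 in all 4 groups.

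A list of 32 partners of these channels and pumps (transporters, regulators and hormone receptors) was represented by 19 genes and 23 identifiers. HSD11B2, which inactivates cortisol in aldosterone-sensitive cells, rose by 0.59 at 6 h and 0.57 at 24 h against Ctl-C and by 0.67 at 24 h against Ctl-CMJ (adjusted p = 0.0350, 0.0495 and 0.0282). ORAI1, the store-operated calcium channel, was higher in WI-CMJ than in Ctl-CMJ by 0.60 (adjusted p = 0.0353) and fell by 0.53 and 0.54 against WI-CMJ at 6 h and 24 h. WNK1 (AY517853), a kinase that controls salt transport, fell by 0.74 against WI-C at 6 h (adjusted p = 0.0349). SLC12A1, the sodium, potassium and chloride cotransporter of the thick ascending limb, was 1.24 higher in Ctl-CMJ than in Ctl-C (adjusted p = 0.0119). No other partner was called in the comparisons made.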

How the data were processed

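Total RNA of cortex or CMJ was labelled with Cy3 by the authors, hybridised to Agilent 1-colour pig arrays and read with Feature Extraction 11.5.1.1. The deposited scanner files give a background-subtracted processed signal, an intensity not normalized between arrays, and the authors also deposited a table of quantile normalized log2 values, used only as an alternative. The genome build behind the probes is not given in the sources used here. Here log2 processed signals were quantile normalized over the 40 arrays with limma 3.58.1 in R 4.3.3. Control spots and outlier spots (10 to 85 an array) were left out and spots averaged by identifier. Each region was fitted with 4 group terms (35939 identifiers in cortex and 35938 in CMJ), and the regions were compared in a fit of all 40 arrays. With 5 arrays a group, their number limits the precision. The 40 arrays came from 10 slides and 2 scan days, each day with arrays of every group.

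The genes named were all called members, KCNIP4, KCNJ10, ATP2B1, MCOLN3, a list of 33 tubular channels and pumps (23 found, of which 2 are not reported here, the others not analysed here) and called partners. Genes shown for the replicate-number pattern, and those under the fold threshold, were chosen after their values were seen. The members and lists were chosen with earlier results of these data known. Groups and replicate numbers came from the labels. By the labels the 6 h and 24 h biopsies came from the same kidneys, and same-numbered WI+CS24h-CMJ and WI+CS6h-CMJ arrays deviated together (r of 0.332 to 0.608), while those of cortex did not in every pair (−0.310 to 0.363). Across regions same-numbered cold-stored arrays correlated at 0.135 to 0.457 at 6 h and 0.145 to 0.481 at 24 h, WI arrays at 0.036 to 0.175 and control arrays at −0.128 to 0.080. Alternatives were 75th percentile scaling, normexp with an offset of 50, a filter on dim identifiers, the authors' normalized values, the brightest probe, blocks for replicate number, slide and scan day, single scan days and, added after the data were seen, the removal of probes flagged on 10 or more arrays. Within a region the replicate block joins same-numbered control, WI and cold-stored arrays, although control, WI and cold-stored kidneys were different ones. Between regions it joins same-numbered arrays of the same state, which the labels do not give as one kidney. The scripts were tested on simulated data.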

Additional observations from a re-analysis of the deposited data

Results flagged for a closer look

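Among 234 groups of 5 arrays examined for 31 identifiers named in the text, 20 held an array set apart from its group; chance sets apart about 1 in 20 groups. Array 5 was the highest for ATP2A2 (NM_213865) in WI+CS24h-C (9.05), WI+CS6h-CMJ (9.05) and WI+CS24h-CMJ (9.08), and for ATP2B1 in WI+CS24h-C (9.28) and WI+CS6h-CMJ (9.08). Array 5 also stood apart for KCNE1 (ENSSSCT00000013181) in Ctl-C (6.87) and WI-CMJ (6.57), for KCNE1 (NM_214165) in Ctl-C (3.24) and WI-CMJ (3.04), and as the lowest array for KCNS3 in WI-C (2.8), TRPC1 in Ctl-C (5.19) and KCNIP4 in WI+CS24h-CMJ (1.68). Array 2 stood apart for KCNJ10 in WI-C (1.92), WI-CMJ (1.85) and WI+CS24h-CMJ (5.68) and for CLCN5 in WI-C (6.63). The remaining arrays were 3 for KCNE1 (FD601376) in WI+CS24h-C (4.86), 4 for KCNMA1 in Ctl-CMJ (3.58), and for SCNN1A 3 in WI+CS24h-C (3.45) and 1 in WI-CMJ (3.66). The cause of these values was not tested.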

How the results depend on the processing

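Of the 29 calls of members, none reversed sign under any alternative, 14 stood in every fit without 1 array and 0 stood under every alternative. Leaving aside normexp and the single scan days, 4 stood under every alternative. The normexp offset of 50 shrinks the log2 differences of dim probes, so that a dim member could miss the fold threshold for that reason alone. Each scan day holds only part of the 5 arrays of a group. Counting also the 5 calls of KCNIP4 and ENSSSCT00000022578, 34 calls in all, 27 stood with 75th percentile scaling, 9 with normexp, 16 with the authors' normalized values, 31 with the brightest probe, 31 with the replicate block, 24 with slide as a block, 33 with scan day as a block and 34 without probes flagged on 10 or more arrays. The dim filter kept 31 of the 31 it could test.

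The members called then numbered as follows. The share of all identifiers called under the same settings is not given here, so these counts cannot be set against the whole array. For WI+CS6h-C against Ctl-C (5) normexp gave 2 and the authors' values 3, and against WI-C (4) normexp gave 1. For WI+CS24h-C against WI-C (1) the authors' values gave 2, the brightest probe 3 and the slide block 2. For WI-CMJ against Ctl-CMJ (1) the percentile, normexp, authors' values, brightest probe and slide block gave 0, the replicate block 2 and scan day 2 alone 2. For WI+CS6h-CMJ against Ctl-CMJ (3) normexp and the authors' values gave 0, and against WI-CMJ (5) normexp gave 1, the authors' values 2 and the slide block 2. For WI+CS24h-CMJ against Ctl-CMJ (4) normexp gave 1, the authors' values 2 and the slide block 1, and against WI-CMJ (3) normexp gave 1. For Ctl-CMJ against Ctl-C (0) the block for same-numbered arrays of the regions gave 2. Scan day 1 alone gave 0 in each comparison, and day 2 alone 0 in all except WI-CMJ against Ctl-CMJ and both cold groups against WI-CMJ. The cause of these changes was not tested beyond the smaller number of arrays on single days.

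Without 1 array the counts ranged from 2 to 7 for WI+CS6h-C and 2 to 4 for WI+CS24h-C against Ctl-C, 1 to 5 and 1 to 2 against WI-C, 0 to 2 for WI-CMJ, 2 to 4 and 2 to 5 for the cold groups against Ctl-CMJ, and 1 to 6 and 3 to 5 against WI-CMJ. The 7 came without WI+CS6h-C replicate 4. For these fits, too, the share of all identifiers called is not given here. The ranges were 0 to 0 for WI-C against Ctl-C, for 24 h against 6 h in either region and for Ctl-CMJ against Ctl-C. With the replicate block on the 10 arrays of 24 h and 6 h, 0 members were called in either region.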
